A study of Mus musculus with 2 samples.

Results

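The splice junction list that the authors deposited for mouse thymus holds 2900 junctions in the loci of the immunoglobulin heavy chain (Igh) and the kappa light chain (Igk), of 532115 junctions in all. They were chosen by position: every entry on chromosome 12 or 6 of the mouse build mm9 that lies inside fixed bounds around each locus. The Igh locus held 2587 junctions with 66347 reads, and the Igk locus 313 junctions with 15930 reads. The list itself gives no gene names, so ends were named by intron length and by the spacing between introns.

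The study sequenced polyadenylated RNA from the thymus of C57BL/6J mice aged 8 weeks, in 2 libraries labelled as biological replicates 1 and 2 of a single untreated group. Tissue of both sexes was pooled, the RNA was longer than a size limit given in the labels, and reads were paired and 76 bases long. There is 1 donor entry for both libraries, so the spread between them may be technical. The junction list is common to both libraries. Each junction name carries 2 entries, R1 and R2, which summed to the junction's reads in all 532115 junctions. No header ties R1 or R2 to a library, so they are given as a pair of replicate values without a library name.

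An antibody gene is assembled from separate segments. In a B cell precursor the recombinase joins a D to a J segment of Igh and then a V segment to the DJ block, while Igk joins V to J directly, and bases are lost from the segment ends and may be added between them. The rearranged V exon is then spliced to a constant gene, which sets the class of antibody, and class switching later replaces Ighm by another constant gene by deleting the DNA between them through repetitive switch regions. A leader exon, spliced to the V exon over a short intron, encodes the signal peptide, and the last exons of a heavy chain gene decide whether the protein is anchored in the membrane or secreted. The thymus is mainly made of developing T cells, whose antigen receptors are built from other loci, but it also holds a small resident B cell population. Which cells gave the joins and transcripts below was not tested.

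The J segments are shown first, because each J has its own donor and is the only part of the rearranged exon whose use the splice junctions report directly. Sequences are from GENCODE M21 transcripts (GRCm38), 5′ to 3′ on the coding strand. Capitals mark the bases kept in the most-read join of that J in the list, and lower case the bases that fall in the gap. Igkj3 had no join and stands in lower case throughout.
Ighj1: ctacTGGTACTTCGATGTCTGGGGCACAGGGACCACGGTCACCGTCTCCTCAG
Ighj2: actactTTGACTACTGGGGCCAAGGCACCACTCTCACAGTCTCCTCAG
Ighj3: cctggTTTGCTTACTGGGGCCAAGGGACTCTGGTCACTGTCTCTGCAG
Ighj4: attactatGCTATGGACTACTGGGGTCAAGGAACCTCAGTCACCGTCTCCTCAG
Igkj1: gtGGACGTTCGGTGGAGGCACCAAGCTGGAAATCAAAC
Igkj2: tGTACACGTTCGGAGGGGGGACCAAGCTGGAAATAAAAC
Igkj3: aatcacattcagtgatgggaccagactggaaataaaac
Igkj4: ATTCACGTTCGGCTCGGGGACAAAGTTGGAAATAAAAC
Igkj5: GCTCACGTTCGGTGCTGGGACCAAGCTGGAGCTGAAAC

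The other side of a join is a D segment of Igh or the end of a V segment of Igk. The 2 D segments with the most join reads are shown whole, and of the V segments the last 30 bases. Capitals again mark the kept bases.
Ighd1-1: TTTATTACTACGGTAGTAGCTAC
Ighd2-8: TCTACTATGGTAACTAC
Igkv3-4: TTACTGTCAGCAAAGTAATGAGGATCCTCc
Igkv3-5: TTACTGTCAGCAAAGTAATGAGGATCCTCc
The last 30 bases of Igkv3-4 and Igkv3-5 are the same, so a short read end over the join cannot tell these V segments apart.

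Facts of the whole series that touch these values are few. The gene tables held 49.3 and 63.1 M estimated fragments in replicates 1 and 2, and the junction list 38942671 reads, of which R1 was 17214608 and R2 21728063. B cell markers were present at low levels: 6 of 6 listed genes reached 1 TPM (transcript level scaled by length and library total), and their summed level was 87.2 and 71.5 TPM in the 2 libraries, with Cd79a, the signalling partner of membrane antibody, at 33.5 ± 4.72 TPM (SD, n = 2). Plasma cell markers reached 1 TPM in 5 of 6 genes, with sums of 168 and 189 TPM of which Xbp1, a secretory stress factor made in many cell types, was 98.9 and 89.5, while Prdm1 was at 0.865 ± 0.0212 TPM. Thymocyte markers did so in 8 of 8, with sums of 3804 and 3858 TPM. The 2 liver genes Alb and Apoa1 summed to 55.1 and 2.78 TPM, and the part of this difference in the immunoglobulin values was not tested. Of the longer lists, B cell identity reached 1 TPM in 10 of 12 genes, plasma cell genes in 8 of 9, surrogate light chain and early B genes in 2 of 4, class switching genes in 3 of 4 and the recombinase list in 3 of 3. Of the lambda light chain list 2 of 4 genes were matched, with Iglc2 at 33.6 ± 11.7 TPM. In bulk tissue, fewer cells of a type and less RNA per cell cannot be told apart.

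Both loci took a larger share of R2 than of R1. Igh held 0.146% of the R1 reads and 0.190% of the R2 reads, and Igk 0.0297% and 0.0498%. The ratio of R1 to R2 reads was 0.611 in Igh and 0.472 in Igk, against 0.792 over the whole list. The unequal shares run through most classes below, so the leading values are given with both entries.

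The 2 loci differed in how their reads were spread over junctions. In Igh 51.4% of the junctions had a single read and 9.90% had at least 10, but these 256 junctions held 92.7% of the locus's reads. In Igk 33.5% of the junctions had a single read and 32.9% had at least 10, against 44.2% and 25.8% in the whole list. Junctions over 5000 bases were 41.3% of those in Igh and 57.5% of those in Igk, against 35.3% in the whole list, and they held 27.4% and 13.7% of each locus's reads against 10.8%. The longest spanned 1300101 bases of Igh and 668041 bases of Igk. Distances are those of unrearranged DNA, which the list is aligned to, and do not give the distance in a rearranged gene.

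**Figure D1:**
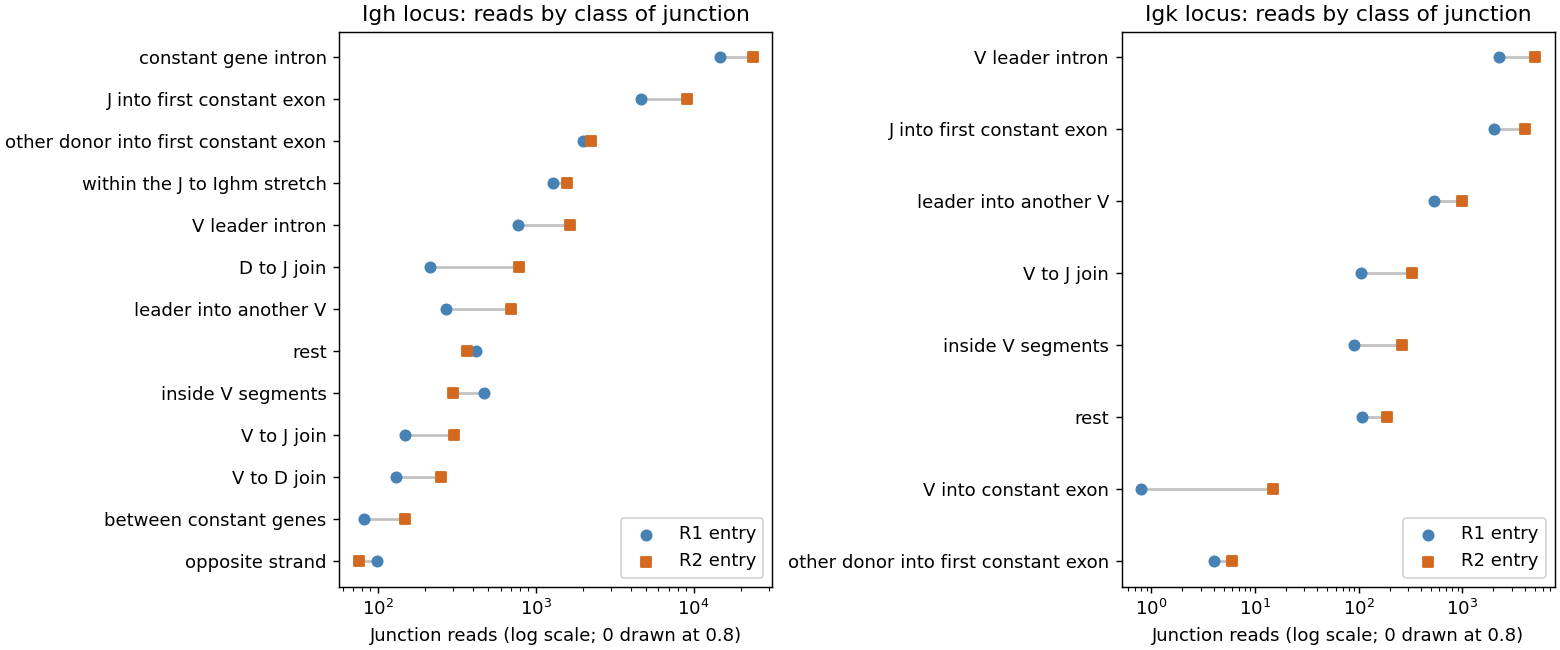
Reads by class of junction in the Igh locus (left) and the Igk locus (right), on a log scale, with the R1 entry as a circle and the R2 entry as a square; classes with under 10 reads are left out. Constant gene introns hold the most Igh reads (38274) and leader introns the most Igk reads (7280), and R2 exceeds R1 in most classes but not in the Igh classes "inside V segments", "rest" and "opposite strand".

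Introns inside constant genes held 57.7% of the Igh reads (95% exact binomial interval 57.3 to 58.1%), or 38274 reads over 37 junctions. Ighm, the gene of the IgM heavy chain, supplied the 3 most-read junctions of the locus. Its second intron (chr12:114659898-114660176, 279 bases) had 16270 reads, 6266 in R1 and 10004 in R2. The first intron had 5589 reads (2257 and 3332) and the third 5367 (2000 and 3367). The second intron thus had 2.91 times the reads of the first, 2.78 times in R1 and 3.0 times in R2, although any full-length IgM message crosses each of them. Igha, the gene of the IgA heavy chain common at mucosal surfaces, had 2758 reads over its second intron (1030 and 1728) and 1071 over its first (297 and 774), a ratio of 2.58, with 3.47 in R1 and 2.23 in R2. The cause of these unequal introns was not tested. A count of reads over constant introns therefore depends on which introns are included.

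The choice of constant gene was therefore read at 1 point, the junction from a J segment into the first constant exon. All 8 constant genes received all 4 J segments, in 32 junctions with 13779 reads (4625 in R1 and 9154 in R2). Ighm took 7324 of them, 53.2% (interval 52.3 to 54.0%), with 54.2% in R1 and 52.6% in R2. Igha followed with 3456 reads or 25.1% (27.4% and 23.9%). Of the IgG2 genes, Ighg2c had 1788 reads or 13.0% (9.21% and 14.9%), and Ighg2b 1054 reads or 7.65% (7.98% and 7.48%). The order Ighm, Igha was the same in both entries and far outside their spread, and Ighg2c stood above Ighg2b in both, although the share of Ighg2c differed widely between the entries.

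The remaining 4 constant genes were rare. Ighg3 had 59 reads (0.428%), Ighe, the gene of the IgE heavy chain, 43 (0.312%) and Ighg1 42 (0.305%). The intervals of Ighg3 (0.326 to 0.552%), Ighe (0.226 to 0.420%) and Ighg1 (0.220 to 0.412%) overlap, and Ighg3 was the lowest of them in R1 (0.238%) and the highest in R2 (0.524%), so they were not told apart at this depth. Ighd, which lies just behind Ighm and is made by alternative splicing of the same message, had 13 reads, 12 in R1 and 1 in R2. The 6 constant genes that need class switching (Ighg3, Ighg1, Ighg2b, Ighg2c, Ighe and Igha) held 6442 of the J reads, 46.8% (interval 45.9 to 47.6%), with 45.5% in R1 and 47.4% in R2. On unrearranged DNA these junctions span 67281 to 169544 bases.

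Other measures gave Ighm a larger share. Over all introns within constant genes Ighm held 79.2% of the reads and Igha 10.3%. In the gene tables Ighm took 72.8% and 70.5% of the TPM summed over the 8 heavy chain constant genes in replicates 1 and 2, with Igha at 15.1% and 15.9%. Of the estimated fragments Ighm held 79.1% (interval 78.7 to 79.5%) and 77.5% (77.2 to 77.7%). The J junctions leave out the other donors described below, which add mainly to Ighm. How far these donors, or the unequal introns above, account for the larger share was not tested.

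Ighg2c also differed between libraries in the gene tables. Its level was 38.6 TPM in replicate 1 and 91.8 TPM in replicate 2, a ratio of 2.38, while Ighg2b was at 71.0 and 82.2 TPM, a ratio of 1.16. Ighg2c was thus below Ighg2b in replicate 1, and on average (65.2 against 76.6 TPM), unlike in the J junctions. Igha had 169 and 230 TPM. Ighd went the other way, with 8.54 and 4.05 TPM, and so did Ighg1 with 7.45 and 4.77 TPM. Ighg2c and Ighg2b are close copies, and how the authors split reads between them is not given in the sources used here.

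The 4 J segments of Igh were used in similar amounts. Over all constant genes Ighj2 had 29.9% of the J reads (31.1% in R1 and 29.4% in R2), Ighj4 25.0% (20.6% and 27.3%), Ighj1 24.7% (26.7% and 23.7%) and Ighj3 20.3% (21.6% and 19.6%). Ighj2 was the highest and Ighj1 above Ighj3 in both entries, while Ighj4 changed from the lowest place in R1 to the second in R2. Ighj4 and Ighj1, neighbours in this order, did not differ beyond the spread of the entries.

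Into Ighm, Ighj2 gave 2271 reads (700 and 1571), Ighj1 1936 (746 and 1190), Ighj4 1778 (525 and 1253) and Ighj3 1339 (536 and 803). The leading J was Ighj1 in R1 and Ighj2 in R2, so its first place was not stable. Into Igha, Ighj2 led in both entries, with 1118 of 3456 reads, 34.6% and 31.0%. Into Ighg2c the entries disagreed: Ighj4 gave 56 of 426 reads in R1, or 13.1%, and 439 of 1362 in R2, or 32.2%. Into Ighg2b, Ighj1 gave 23.0% in R1 and 38.4% in R2. Of the rare genes, Ighg3 took 41 of its 59 J reads from Ighj3, 6 of 11 in R1 and 35 of 48 in R2. The gap between R1 and R2 for Ighj4 into Ighg2c is wider than the interval of the joint value (25.6 to 29.8%), which covers counting error only. The number of B cell clones behind the reads was not measured.

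**Figure D2:**
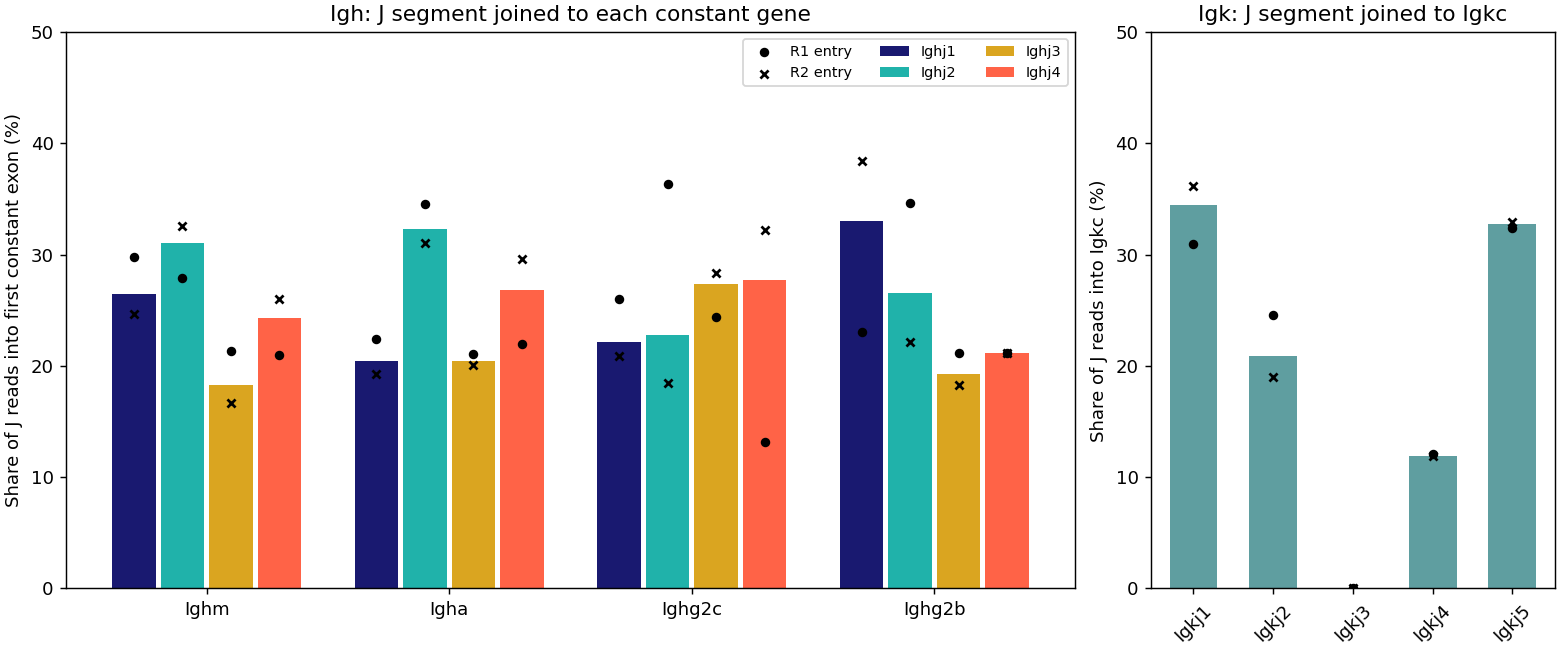
Share of J reads (percent) by J segment, for the 4 most-read heavy chain constant genes (left) and for Igkc (right); bars are both entries together, circles R1 and crosses R2. The 4 J segments stay between 18.3% and 33.0% in every heavy chain gene shown, with the widest gap between entries for Ighj4 into Ighg2c (13.1% and 32.2%), and Igkj3 is at 0.

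Kappa J use was less even. The 4 junctions from a kappa J into Igkc, the only kappa constant gene, held 6023 reads (2008 in R1 and 4015 in R2), 37.8% of the locus's reads. Igkj1 (chr6:70672594-70676428) had 2075 reads, 621 in R1 and 1454 in R2, or 34.5% (interval 33.3 to 35.7%). Igkj5 had 1973 reads (651 and 1322) or 32.8% (31.6 to 34.0%). The first place went to Igkj5 in R1 (32.4% against 30.9%) and to Igkj1 in R2 (36.2% against 32.9%), so these 2 did not differ beyond their spread. Igkj2 had 1257 reads, 24.6% of R1 and 19.0% of R2, and Igkj4 718 reads, 12.1% and 11.9%. Igkj2 and Igkj4 were below Igkj1 and Igkj5 in both entries.

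Igkj3 had no junction into Igkc. A count of 0 among 6023 reads allows a share of up to 0.0498%, for counting error only. Igkj3 is regarded as a non-functional J segment, and it also had no V join in the list. In the gene tables all 9 J segments of both loci and all 20 D segments with a matched symbol were listed at 0 in both libraries, so the use of J and D can be read here from the junctions alone.

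Ighm also received reads from donors that are no J segment. Of the 11386 reads into its first exon, J segments gave 64.3% (interval 63.4 to 65.2%), with 56.7% in R1 and 69.2% in R2. A single donor 3925 bases upstream of the exon (chr12:114660942-114664865) gave 1482 reads, 714 in R1 and 768 in R2, or 13.0%. It lies 1859 bases behind Ighj4, in the region that holds the heavy chain intronic enhancer, where transcripts of the unrearranged or partly rearranged gene, called sterile or germline transcripts, are known to start. These reads were nearly equal in R1 and R2, unlike the J reads, which were 2507 and 4817. The same donor was joined to the first exons of 4 other constant genes with 41 reads, namely Ighg2b (14), Ighd (11), Igha (9) and Ighg2c (7).

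A further 88 donors between Ighj4 and Ighm gave 2578 reads (1202 in R1 and 1376 in R2), 22.6% of those into Ighm. No single one had more than 241 reads, and 44 had at least 10. They crowded into a narrow stretch: 82 of the 88, with 2499 reads, lay 1000 to 3000 bases upstream of the exon. This is where the switch region of Ighm lies, DNA built from tandem repeats of 5 bases that is cut in class switching.

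Many positions in that stretch were a multiple of 5 bases apart. The list's name entry C was 1 for 57 of the 88 donors. No header says what it marks, but it was 1 for every constant intron, J and leader junction in both loci and 0 for all 145 D to J joins. Among these 57 donors, 44 lay at a distance that is a multiple of 5 bases, or 77.2% (interval 64.2 to 87.3%), with 67.9% of the reads in R1 and 71.0% in R2. Of the 31 donors with entry C at 0, 23 did so, or 74.2% (55.4 to 88.1%). A further 1071 junctions had both ends inside the stretch between Ighm and Ighj4, with 2864 reads, none above 36. With entry C at 1, the gap was a multiple of 5 in 727 of 767, or 94.8% (93.0 to 96.2%). With entry C at 0 it was so in 137 of 304, or 45.1% (39.4 to 50.8%). Over the 215189 junctions of the whole list with entry C at 1 and the same range of lengths, 31 to 3917 bases, the share was 20.3%. The multiple of 5 was looked at after the donor positions were seen. Distances count from the last donor base to the first base of the exon, 1 more than the gap, and another convention would change the remainder. Whether reads of the stretch were placed at more than 1 repeat was not tested, so its junctions are not counted here as distinct splice sites.

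**Figure D3:**
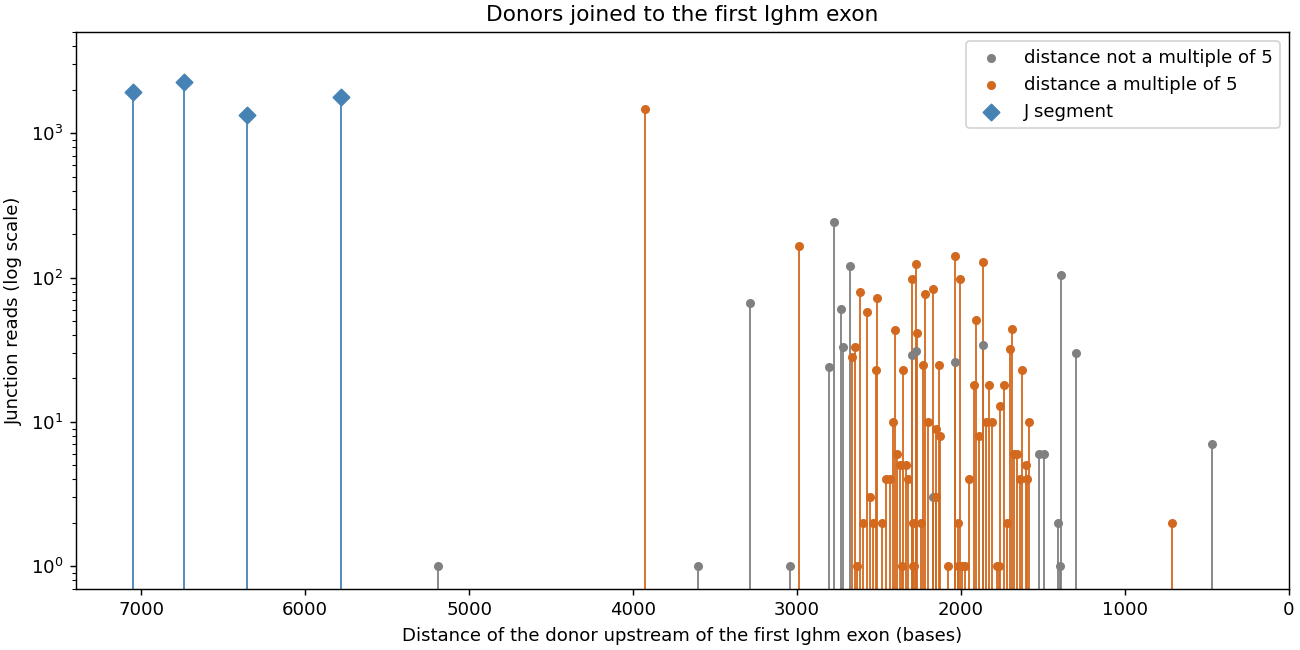
Reads (log scale) of each donor joined to the first Ighm exon against its distance upstream of that exon in bases; diamonds are the J segments, orange points lie at a multiple of 5 bases and grey points do not. The 4 J segments and the donor at 3925 bases stand above 1000 reads, and 82 of the 88 other donors lie between 1000 and 3000 bases with at most 241 reads.

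Switched constant genes had between 4 and 74 reads from non-J donors. Igha had 74 such reads against 3456 from J segments, 2.10% of the sum (interval 1.65 to 2.62%), with 57 of them from 1 donor 4712 bases upstream. Ighg2c had 39 reads, or 2.13%, and Ighg2b 32, or 2.95%. Part of these reads came from far donors. Among them, the donor 3925 bases upstream of Ighm gave 14 reads to Ighg2b, 9 to Igha and 7 to Ighg2c. As background, donors near a constant gene of this kind give the sterile transcripts that precede switching, so the shares do not count such transcripts alone. In the rare genes the share was higher but rests on few reads: 12 reads or 16.9% in Ighg3 (38.9% in R1 and 9.43% in R2), 5 or 10.6% in Ighg1 and 4 or 8.51% in Ighe, all 4 of them in R1. The share in Ighm was 35.7% (34.8 to 36.6%), and 43.3% in R1 and 30.8% in R2.

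Kappa had little of this. One donor 3185 bases upstream of Igkj1 was joined to Igkc with 10 reads (4 in R1 and 6 in R2). Leader exons of 5 V segments of the Igkv3 family were joined to Igkc directly, with 15 reads, all in R2, so this class has no second entry to compare with.

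The membrane exons were read against the last intron shared by the membrane and secreted forms. In Ighm the junction into the first membrane exon had 1314 reads (604 and 710) and the last shared intron 5367 (2000 and 3367). The membrane junction was 19.7% of the sum (interval 18.7 to 20.6%), with 23.2% in R1 and 17.4% in R2. Both forms cross the shared intron, so this is an index and not the share of membrane messages. The transcript tables gave the membrane form 25.6% and 18.2% of the Ighm TPM in replicates 1 and 2.

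Igha had an index of 4.07% (3.38 to 4.86%) on 117 membrane reads, and Ighg2b one of 5.06% (2.92 to 8.09%) on 16. Ighg2c had 9.57% (6.09 to 14.1%) on 22. The last shared intron of Igha is also its most-read one. Against the first intron instead, the index was 9.85% for Igha, 3.33% for Ighg2c, 1.96% for Ighg2b and 19.0% for Ighm, so the order of Igha and the 2 Ighg genes depends on the intron and only Ighm was the highest of the 4 in both. In all 4 of these genes the index against the last shared intron was higher in R1 than in R2, with 5.50% and 3.19% for Igha. The index also depends on the membrane junction read. The next intron, between the membrane exons, had 1764 reads in Ighm, 56 in Ighg2c and 51 in Ighg2b, more than the first membrane junction. In Ighd it had 68, fewer than the first. The Igha form used here has no such intron. Ighd had the highest index, 68.1% (58.9 to 76.3%), on 81 membrane reads, and its entries were alike at 68.3% and 67.6%. Its last shared intron had only 38 reads, fewer than the membrane junction, although both forms cross it. Against the first intron, with 7 reads, the index was 92.0%. The Ighd index therefore also reflects few reads over the shared introns, and the cause was not tested. IgD is known mainly as a membrane receptor of mature B cells. Ighe had 0 membrane reads beside 76 over the last shared intron, and a count of 0 allows up to 3.95%. Ighg3 and Ighg1 had 9 and 5 reads over the first membrane junction, too few to place them, and 23 and 5 over the next.

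Leader introns tell which V segments were transcribed, whether rearranged or not. In Igh 81 of 194 annotated V segments had a leader junction, with 2418 reads (771 in R1 and 1647 in R2), and 34 had at least 10 reads. The annotated segments of both loci include pseudogenes. The 10 leading segments held 69.1% of them, 66.5% in R1 and 70.4% in R2. Ighv2-2 (chr12:114826782-114826865), near the D and J end of the locus, had 309 reads, 88 in R1 and 221 in R2. It was followed by Ighv8-8 with 223 (39 and 184), Ighv2-5 with 217 (49 and 168), Ighv2-3 with 200 (83 and 117) and Ighv2-9 with 189 (102 and 87). The next 5 were Ighv8-12 with 187 (23 and 164), Ighv8-5 with 141 (79 and 62), Ighv2-6 with 81 (35 and 46), Ighv1-15 with 64 (15 and 49) and Ighv9-2 with 61. The order was not stable: Ighv2-9 led in R1 and Ighv2-2 in R2, and all 61 reads of Ighv9-2 were in R2.

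Families differed from their size in the annotation, pseudogenes included. The Ighv2 family had 46.4% of the Igh leader reads from 9 of its 11 annotated segments, with 52.7% in R1 and 43.5% in R2, and the Ighv8 family 24.8% from 8 of 16. Ighv1, with 92 annotated segments, had 15.9% from 35. Ighv5, with 21, had 0.496% from 4. These are shares of leader reads alone and no measure of family use. The gene tables gave Ighv5-17 an estimated 42 and 110 fragments where its leader junction had 4 reads, and Ighv1-55 48.0 and 274 where the junction had 3. They gave Ighv2-3 only 23.0 and 36.0 where the junction had 200. Ighv5-17 also had 47 V to D and 42 V to J reads in the joins described below. These 3 segments were named here after their values were seen.

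Kappa V segments had more leader reads. A leader junction was seen for 84 of 176 annotated segments, pseudogenes included, and 65 had at least 10 reads. Together they had 7280 reads (2258 and 5022), 45.7% of the locus's reads. Segments on both strands took part, 36 on the plus strand with 3437 reads and 48 on the minus strand with 3843. Minus strand V segments lie inverted to the J segments and join them by inversion of the DNA between them. Igkv3-4 (chr6:70621832-70622061) led in both entries with 950 reads, 199 in R1 and 751 in R2, or 8.81% and 15.0%. Igkv10-94 had 584 (186 and 398), Igkv4-53 444 (97 and 347) and Igkv10-96 434 (166 and 268).

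The next 6 kappa segments were Igkv3-2 (317), Igkv6-23 (314), Igkv2-137 (278), Igkv1-135 (215), Igkv8-30 (191) and Igkv17-127 (174). The 10 leading segments held 53.6% of the leader reads, with 46.0% in R1 and 57.0% in R2. By family, Igkv3 had 23.6% from 9 of 13 segments, Igkv10 14.2% from 3 of 3, Igkv4 12.9% from 15 of 33 and Igkv6 11.6% from 9 of 9. Kappa reads were spread over more families than heavy chain reads, of which the leading pair held 46.4% and 24.8%.

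Leader reads and the estimated fragments of the V genes went together in part. Over 79 Igh V segments with a matched gene, Pearson's r was 0.52 and Spearman's rho 0.48, and over 80 Igk segments 0.67 and 0.69. These are descriptions across segments that share libraries and, within families, sequence. Igkv4-59 stood apart with 122 and 300 estimated fragments and 5 leader reads, and was named after its values were seen.

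**Figure D4:**
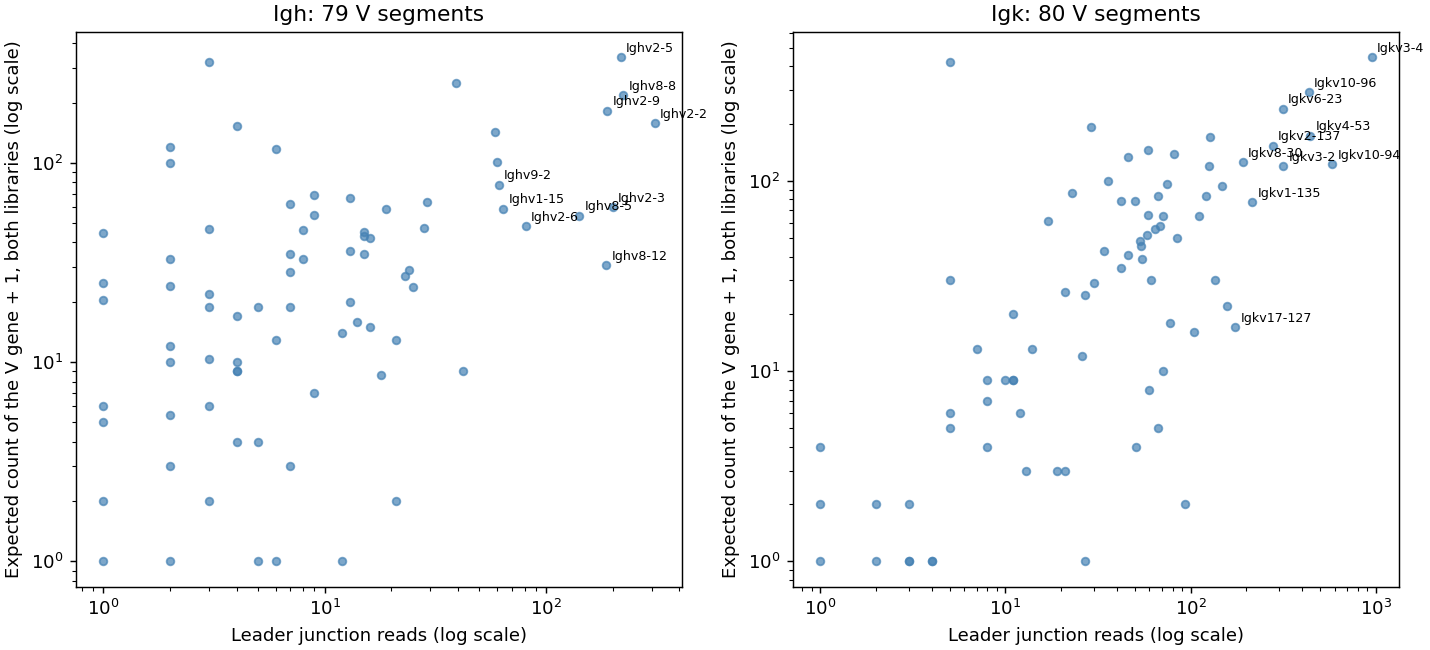
Estimated fragments of each V gene plus 1, summed over both libraries, against its leader junction reads, both on log scales, for 79 Igh (left) and 80 Igk (right) V segments; names mark the 10 with the most leader reads. Points rise together in both loci, with wide scatter where a leader junction has under 10 reads.

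Some leader exons were joined to the V exon of another segment. In Igh 84 such junctions had 969 reads and in Igk 58 had 1526. Some repeated the reads of a leader junction they share an end with: 14 of the 84 and 6 of the 58 had the same R1 and R2 reads, and 19 and 8 when a difference of 1 read is allowed. The leader of Igkv10-94 was joined to Igkv10-96 with 433 reads (166 in R1 and 267 in R2), beside 434 (166 and 268) for the Igkv10-96 leader junction itself. The leader of Ighv8-14 was joined to Ighv8-12 with 187 reads (23 and 164), the same as the Ighv8-12 leader junction. Among junctions with at least 10 reads, 34 of 256 in Igh (13.3%) and 15 of 103 in Igk (14.6%) shared an end and both entries with another, against 1.09% in the whole list. Whether the same reads were counted at both places is not stated in the sources used here, so sums over V segments can hold some reads more than once.

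Smaller classes complete the count. Between or within V segments, 208 Igh junctions with 768 reads and 48 Igk junctions with 350 reads had at least 1 end off the annotated exon edges. They were led by Ighv3-2 to Ighv3-1 with 146 reads (62 and 84) and, within Igkv12-89, by 139 reads (21 and 118). Between different constant genes 16 junctions had 231 reads, with 89 (39 and 50) from Ighg3 to Ighg2c. J segments were joined to a later constant exon in 5 junctions with 6 reads. The strand opposite to Igh had 150 junctions with 175 reads, none above 6, and 349 Igh and 71 Igk junctions with 786 and 296 reads had ends in no class.

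Joins of the DNA itself were also listed. A read over a rearranged exon aligns to the unrearranged genome with a gap from V or D to J, and 441 Igh gaps with 1838 reads (494 in R1 and 1344 in R2) and 42 Igk gaps with 430 reads (106 and 324) had ends in or within 6 bases of such segments. Entry C was 0 for 433 of the 441 and for 40 of the 42. A gapped alignment needs read ends that match the genome, so bases added at a join, and joins with many of them, are not shown by these entries.

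D to J joins were the most-read kind, with 145 gaps and 1001 reads (214 and 787). Ighd1-1 was the donor of 697 reads, 69.6% (interval 66.7 to 72.5%), with 70.6% in R1 and 69.4% in R2. Ighd2-8 had 145 reads, 14.5%, but 2.34% of R1 and 17.8% of R2, so its share rests on 1 entry. Ighd2-4 had 75 reads, and no other D had more than 19. By acceptor, Ighj4 had 39.7% (20.6% and 44.9%), Ighj1 27.2%, Ighj2 22.5% and Ighj3 10.7%. Ighj3 was the lowest J in both entries, with 13.6% and 9.91%.

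The most-read joins are given with the bases missing at each side as the list places the gap. Ighd1-1 to Ighj4 (chr12:114666771-114720380) had 123 reads, 5 in R1 and 118 in R2, with D whole and 8 bases missing from J. Ighd1-1 to Ighj1 had 117 reads (28 and 89), with D whole and 4 bases missing from J. There the last 4 bases of the D segment, printed above, are the same as the first 4 of Ighj1, so the gap can be placed at any of these bases. Ighd2-8 to Ighj1 had 55 reads, all in R2, with the same 4 shared bases. Over the 875 D to J reads with both ends inside the segments, a median of 5 bases was missing from J and 0 from D as listed, and J was whole in 9 reads. Where bases are shared, this split follows the placement of the gap: in 289 of the 875 reads the gap can be placed so that J is whole. The listed split is therefore no measure of trimming at each side.

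Shared bases at the join were common in D to J reads. At least 1 base was shared in 631 of the 875, or 72.1%, with 70.4% in R1 and 72.5% in R2, and at least 2 bases in 58.7%. By acceptor it was 92.9% for Ighj1, 83.2% for Ighj2, 62.5% for Ighj4 and 25.0% for Ighj3. For the kappa V to J joins it was 1 of 410 reads, or 0.244%. How an aligner places a gap, and which joins it keeps, are not stated in the sources used here, and their part in this contrast was not tested.

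V to D joins had 383 reads over 137 gaps from 29 V segments, 286 of them into Ighd1-1. The most-read was Ighv7-1 to Ighd1-1 with 62 reads (7 and 55), and Ighv5-17 gave 47 reads over 7 gaps, all in R2. Gaps straight from V to J in Igh had 454 reads over 159 gaps from 26 V segments. In 68 of the 454 reads both ends lay inside the segments, and in the rest at least 1 end lay up to 6 bases outside. Ighv2-2, first by leader reads, was also first here with 49 reads (14 and 35). The next did not follow the leader order. Ighv7-1 gave 44 (12 and 32) and Ighv5-17 42 (26 and 16), with 3 and 4 leader reads. Ighv5-9 gave 37 (3 and 34) and Ighv5-15 30 (17 and 13), both without a leader junction. Ighv2-4 and Ighv2-5 gave 26 and 25, with 42 and 217 leader reads. Some V segments of a family had the same reads at the same acceptor position. Ighv2-4 and Ighv2-5 each had 6 reads (6 and 0) into Ighd2-5 and 7 (1 and 6) into Ighj4. The numbers of gaps, reads and V segments can thus hold the same reads more than once.

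Kappa V to J joins had 430 reads over 42 gaps from 10 V segments. Igkv3-4, the segment with the most leader reads, also had the most join reads, 198 (36 and 162). Its join to Igkj1 with 1 base missing from V and 2 from J had 160 reads, 15 in R1 and 145 in R2, so R2 carries most of this value. Igkv3-5, which shares its last 30 bases with Igkv3-4, had 24 reads (1 and 23) over a join with the same trimming. Igkj1 took 294 of the 430 reads, or 68.4% (47.2% in R1 and 75.3% in R2), and 34.5% of the splice junction reads into Igkc. A gap joins ends on 1 strand, so V segments inverted to J are outside this count. Of the 410 reads with both ends inside the segments, a median of 2 bases was missing from J and 1 from V, and 98 reads had J whole.

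**Figure D5:**
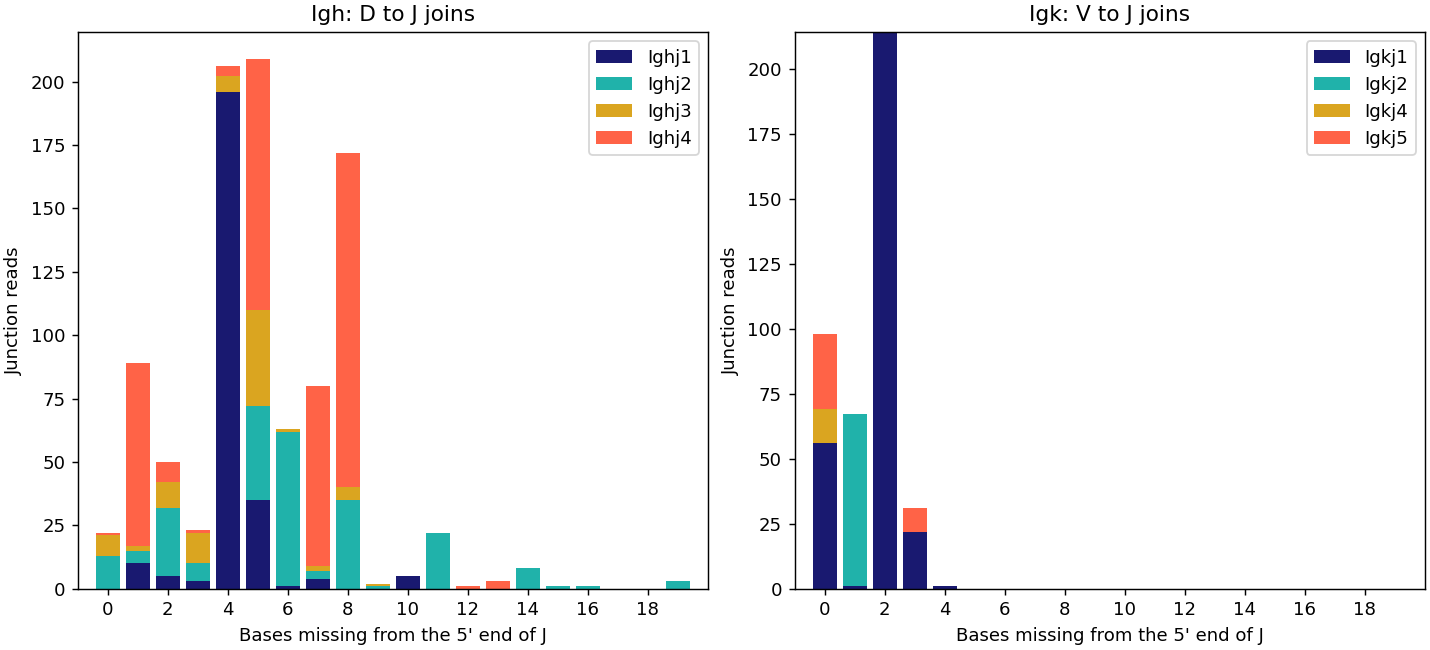
Junction reads by the number of bases missing from the 5′ end of J, for Igh D to J joins (left) and Igk V to J joins (right), coloured by J segment. In Igh Ighj1 reads gather at 4 missing bases and most Ighj4 reads are spread from 1 to 8, while in Igk nearly all reads have at most 3 missing bases.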

How the data were processed

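The authors deposited 1 junction list for the series on mm9, with no header. Its deposited counts are whole numbers of reads per junction and its deposited score is a reproducibility value, both read from the values. R1 and R2 come from the deposited junction names. Per the file headers, the gene and transcript tables hold expected counts and TPM, and per the text files deposited with them they were made on mm10 with GENCODE M4. No source used here names the aligner, the counter or their filters.

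Junctions were named from GENCODE M21 (GRCm38) without converting coordinates. In each locus 1 spacing was shared by 116 (Igh) and 86 (Igk) introns of equal length and strand, and any other spacing by 1. Ends on an exon edge, or within 6 bases for joins, took that segment's name. The search for the shared spacing was tested on simulated data: of 100 introns per locus moved by a random offset among 300 random junctions, all 100 were recovered. The moved introns were exact copies of annotated ones, so the naming of segments, joins and classes was not tested. Shares have exact (Clopper-Pearson) 95% intervals, which cover counting error only, as does the limit of 3 counts for a count of 0. PCR copies are not independent molecules. No test between groups was made, since there is 1 group. The text names every constant gene and J segment, the 10 leading V segments per locus, and the leading junctions of a locus or class. Members and lists were chosen with earlier results of these data known. Gene symbols came from the reference name table. Contig lists, the name entry A and other columns of unknown meaning were not used. Alternatives were a read minimum of 10, a reproducibility of at most 0.1, leaving out either library, and those given in the closing section. Binomial intervals were computed with scipy 1.17.1, tables with pandas 2.3.3 and numpy 2.4.6 in Python 3.11.15, and plots with matplotlib 3.10.9.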

Additional observations from a re-analysis of the deposited data

How the results depend on the processing

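Read sums, and the shares of Ighm, Igha and the donors into Ighm at J junctions, moved little under the read and reproducibility filters. The Igkj1 share could not move, since all 4 junctions pass both. Numbers of junctions moved most. With at least 10 reads per junction, Igh kept 256 junctions and Igk 103, and with a reproducibility of at most 0.1 they kept 392 and 113. Junctions over 5000 bases fell to 86 and 30, and to 126 and 35. Igh V segments with a leader junction fell to 34 and 44. These filters remove junctions by construction. Counting any junction of leader length in the V stretch gave 84 in Igh with 2422 reads and 99 in Igk with 7652. The leader junctions of annotated segments were 81 with 2418 and 84 with 7280. Counted over all constant introns, Ighm held 79.2% and Igha 10.3%, in place of 53.2% and 25.1%. By expected counts scaled to library total, and by posterior mean counts, the Ighm share of the heavy chain genes was 78.3% in place of 71.6%. The rank correlation of leader reads with V gene counts was 0.63 (Igh) and 0.55 (Igk) over segments with at least 10 reads, and ranged from 0.38 to 0.46 and from 0.62 to 0.69 with the gene counts of either library left out, the leader reads staying whole. The causes of these last 2 differences were not tested. Against the first intron, an alternative chosen after seeing the data, the Igha membrane index was 9.85% in place of 4.07%. Without junctions that repeat the reads of a shorter one at a shared end, an alternative chosen after seeing the data, Igh had 65845 and Igk 15371 reads. No paired analysis was possible because all samples form 1 group. Depth limits Ighd, Ighg1, Ighg3 and Ighe, with at most 59 J reads each.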
